A study of Mus musculus with 18 samples.

Results

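Nascent transcription of 9 megakaryocyte and platelet genes was followed across sorted mouse fetal liver populations. The genes were taken by symbol, as Pf4, Ppbp, Itga2b, Itgb3, Gp1ba, Gp1bb, Gp9, Gp6 and Vwf, from a table of 54232 gene identifiers. All 9 were in the table, and all 9 passed the filter on low counts, which left 17755 genes to test. Ppbp, Gp1bb and Gp6 passed it through the Lin+ libraries alone, with at most 11, 9 and 6 raw counts in any other library. A gene admitted in that way had to be higher in Lin+, so the Lin+ values of these 3 are a description and their p-values no support. The livers came from C57BL/6 embryos of e12.5 to e13.5, and the labels name no genetic change or drug. The sorted cells were rested for 6 h in erythroid medium, and new RNA was then labelled with 500 µM 4-thiouridine (4sU) for 45 min. There were 18 libraries, 3 from each of 6 populations. S0-Low cells were labelled Lin-, CD71- and Ter119-, and S0-Medium cells had medium CD71 and no Ter119. S1 cells had high CD71 without Ter119, S2 cells had high CD71 with medium Ter119, and S3 cells were high for both. The sixth population, Lin+, was lineage-positive. CD71 is the transferrin receptor and Ter119 marks maturing red cells, so S0-Low to S3 follows erythroid maturation. By the study's methods, cells bearing Ter119 were first depleted on magnetic beads. The lineage panel then combined antibodies to CD41, CD45R, CD3e, CD11b and Ly-6G/6C, so that Lin+ was a mixture of blood lineages and not a purified megakaryocyte population. Nothing in the labels says whether replicates of a population came from separate litters, though the study calls its replicates biological. The p-values measure the spread between these libraries.

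Megakaryocytes are the large marrow and fetal liver cells that shed platelets, and they arise from a progenitor shared with red cells. Platelets carry the chemokines Pf4 and Ppbp in their alpha granules. On their surface, integrin alphaIIb beta3 (Itga2b and Itgb3) binds fibrinogen, the GPIb-IX complex (Gp1ba, Gp1bb and Gp9, with Gp5) binds von Willebrand factor, and glycoprotein VI (Gp6) binds collagen. Von Willebrand factor itself (Vwf) is made by megakaryocytes and by endothelial cells. The protein of Itga2b is CD41, an antigen of the lineage panel. A difference in Itga2b between Lin+ and the lineage-negative populations is therefore a check of the sort and not a finding. The gate that takes cells with CD41 into Lin+ also bears on the other members. Their Lin+ values are thus not independent of the sort.

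The members lie on 5 chromosomes of the mouse genome (GRCm38.p6, positions from RefSeq). Pf4 (chr5:90772435-90773383) and Ppbp (chr5:90768518-90770063) are neighbours, 2371 bases apart. Itga2b (chr11:102453297-102469883), Itgb3 (chr11:104608000-104670476) and Gp1ba (chr11:70639102-70643986) share a chromosome. Gp9 (chr6:87776131-87779786) and Vwf (chr6:125552948-125686679) share another. Gp6 is at chr7:4362853-4397851. Gp1bb (chr16:18620319-18622403) overlaps Septin5 by 593 bases, and 30.4% of the 31-base stretches of its transcripts also occur in other genes, so that its counts are uncertain. For Itgb3 that share was 0.215%, and for the other 7 members it was 0.

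Promoter sequences, 250 bases up to the transcript start used in the RefSeq promoter table and in the direction of the gene, are given for the chemokine pair, for Itga2b and for Gp1ba, to show a neighbouring pair, the gene of the sorted antigen and a window with both motifs. Capitals mark GATAA, a core of GATA factor motifs, and AGGAAG, a core of ETS factor motifs, read on either strand (TTATC and CTTCCT).
Pf4 (chr5:90772185-90772434, plus strand): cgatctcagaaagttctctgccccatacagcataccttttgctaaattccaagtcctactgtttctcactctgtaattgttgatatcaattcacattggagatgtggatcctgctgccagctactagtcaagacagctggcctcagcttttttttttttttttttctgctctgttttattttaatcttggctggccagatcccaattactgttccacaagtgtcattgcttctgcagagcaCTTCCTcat
Ppbp (chr5:90768268-90768517, plus strand): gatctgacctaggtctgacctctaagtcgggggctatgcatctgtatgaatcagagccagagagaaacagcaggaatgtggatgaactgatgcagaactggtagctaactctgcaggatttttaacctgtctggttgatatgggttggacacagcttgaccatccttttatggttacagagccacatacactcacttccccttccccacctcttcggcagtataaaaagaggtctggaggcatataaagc
Itga2b (chr11:102469884-102470133, minus strand): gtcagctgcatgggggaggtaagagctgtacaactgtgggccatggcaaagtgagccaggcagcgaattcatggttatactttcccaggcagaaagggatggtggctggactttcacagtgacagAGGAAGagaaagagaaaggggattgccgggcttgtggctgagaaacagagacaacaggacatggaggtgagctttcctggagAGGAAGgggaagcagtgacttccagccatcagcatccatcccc
Gp1ba (chr11:70638872-70639121, plus strand): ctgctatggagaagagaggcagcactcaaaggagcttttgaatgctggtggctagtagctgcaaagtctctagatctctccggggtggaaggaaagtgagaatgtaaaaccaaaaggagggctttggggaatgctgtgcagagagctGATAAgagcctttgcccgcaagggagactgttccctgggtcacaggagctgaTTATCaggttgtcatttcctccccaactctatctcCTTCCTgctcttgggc
A promoter entry was found for 7 members, with Itgb3 and Vwf as the exceptions. GATAA occurred in 3 of the 7 (Gp1ba, Gp9 and Gp6), against 22.6% of all 32851 promoter windows of the same length. AGGAAG occurred in 4 of the 7 (Pf4, Itga2b, Gp1ba and Gp9), against 29.5%. Gp1ba and Gp9 held both, as did 6.58% of all windows. In Gp1ba the GATAA matches began 103 and 51 bases before the start and the AGGAAG match 16 bases before it. No match overlapped another. The transcript start of the table is the first base of the gene, as placed above, for Pf4, Ppbp, Itga2b and Gp1bb, and lies 20 bases inside the gene for Gp1ba, 107 for Gp6 and 1939 for Gp9. These are matches of letters and not measured binding sites.

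Library totals ran from 9452476 counts (S0-Low replicate 3) to 40567976 counts. The floor of detection was taken as 3 counts. Scaled to the library total, this floor came to between 0.0739 and 0.317 CPM, the unit of counts scaled to library size. All other CPM values were scaled to the effective library size, which is the total adjusted by TMM scaling. Intervals and floors cover counting error only. The labels call all 18 libraries primary erythroblasts. The summed level of 8 erythroid markers went against that for Lin+, at 47.3 to 90.0 CPM, against 290 to 857 CPM in S0-Low and 21419 to 40438 CPM in S3. Lin+ instead held 9 neutrophil and granulocyte precursor markers at 3208 to 5784 CPM, 9 macrophage markers at 197 to 304 CPM and 6 mast cell and basophil markers at 93.6 to 210 CPM. The same 3 lists summed to 339 to 797, 33.4 to 53.4 and 21.5 to 34.3 CPM in S0-Low. No marker of these lists was at 0 in all Lin+ libraries. In Lin+, B cell markers summed to 49.0 to 87.8 CPM, T cell markers to 9.55 to 12.2 CPM and hepatocyte markers to 0.808 to 4.00 CPM. The 8 stem and progenitor markers summed to 1521 to 2307 CPM in Lin+ and 1759 to 2556 CPM in S0-Low. The study describes S0-Low as stem and progenitor cells with erythroid burst-forming units. The 9 megakaryocyte and platelet genes together made up 696 to 1880 CPM in Lin+, 227 to 339 CPM in S0-Low, 167 to 355 CPM in S0-Medium, 46.0 to 135 CPM in S1, 35.4 to 116 CPM in S2 and 77.7 to 127 CPM in S3. The bearing of the other lineages in Lin+ on the values of the members was not tested. In mixed cells such as these, fewer megakaryocytes and less RNA per megakaryocyte cannot be told apart.

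Levels below are normalized counts, for which each library was brought to one common effective size. In 8 of the 9 members, all but Gp9, each Lin+ library stood above each of the 15 lineage-negative libraries, an ordering that held for 9.7% of all genes tested. Without Itga2b and the 3 members that passed the filter through Lin+ alone, it held for 4 of 5, beside 7.97% of the 16555 genes that pass on the lineage-negative libraries alone. These 5 are not independent of the CD41 gate either. Per kilobase of exon, the Lin+ levels ran from 6870 ± 4990 normalized counts (SD, n = 3) for Pf4, through 2660 ± 1380 for Itgb3, 1640 ± 923 for Itga2b, 403 ± 244 for Vwf, 331 ± 47.2 for Gp9, 254 ± 98.7 for Ppbp, 232 ± 154 for Gp1ba and 160 ± 161 for Gp6, to 12.9 ± 4.87 for Gp1bb. Neighbours in that order overlapped, with 2 exceptions: the lowest Itga2b library (1070) was above the highest of Vwf (676), and the lowest Gp6 library (25.5) above the highest of Gp1bb (16.6). Lin+ replicate 1 was the highest Lin+ library for 8 members and replicate 2 the lowest for 8. The highest Lin+ library exceeded the lowest by 1.33-fold for Gp9, 4.54-fold for Pf4 and 13.3-fold for Gp6. Among the marker sums, those of neutrophils and macrophages were highest in Lin+ replicate 1 (5784 and 304 CPM), that of mast cells and basophils in replicate 2 (210 CPM) and that of endothelial cells in replicate 3 (143 CPM). Single neutrophil markers differed in this, with Mpo highest in replicate 1 and S100a8 and S100a9 lowest there. Whether these differences bear on the members was not tested.

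**Figure D1:**
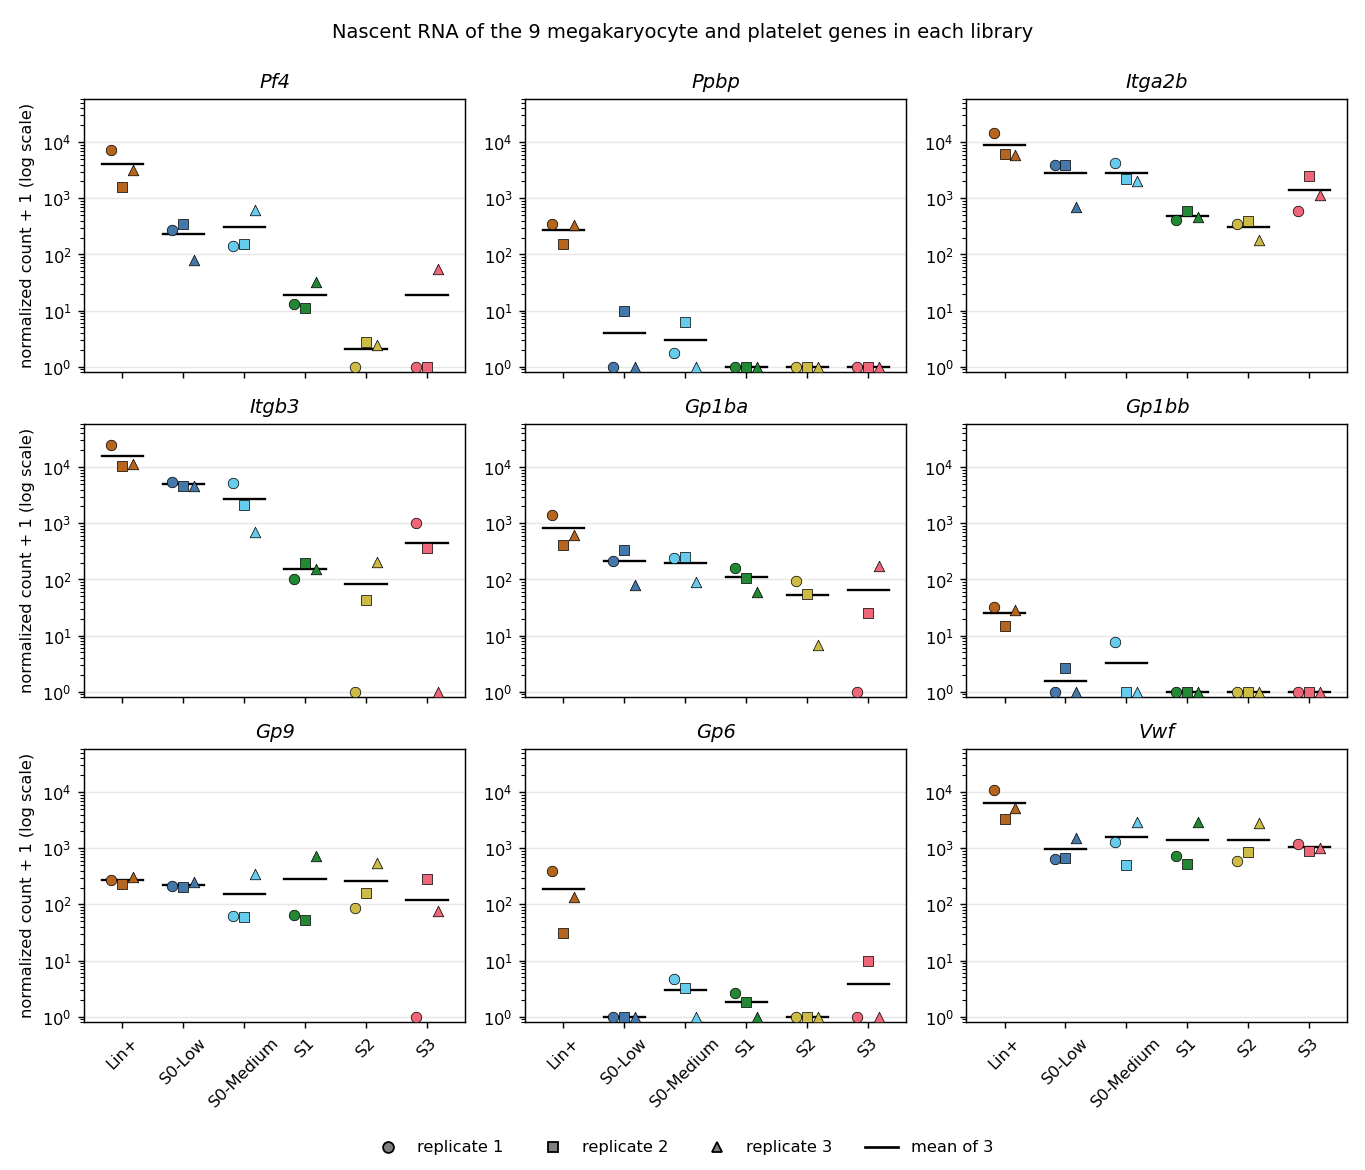
Normalized counts plus 1 on a log axis (vertical) for each of the 9 genes in the 6 populations (horizontal); each point is 1 library, its shape gives the replicate number, and the bar is the mean of 3. In every panel but that of Gp9 the 3 Lin+ libraries sit above the other 15, and replicate 3 of S0-Medium, S1 and S2 is the highest of its population for Gp9 and Vwf.

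The granule chemokine genes had most of their reads in Lin+ and, from S1 on, few or none. Pf4, platelet factor 4, held 7270, 1602 and 3207 normalized counts in the 3 Lin+ libraries. It held 277, 345 and 79.7 in S0-Low and 139, 153 and 626 in S0-Medium. In S1 it had 15, 12 and 29 raw counts, which made 12.2 and 10.0 normalized counts in replicates 1 and 2 and a mean of 17.7 ± 11.5 (SD) with the higher replicate 3. It held in S2 0, 1.70 and 1.47, and in S3 0, 0 and 53.3. Pf4 was thus highest in Lin+, far lower in both S0 populations, whose ranges overlapped, low in S1, and at or under the floor of 3 counts in S2 and in 2 of the S3 libraries, the other of which rested on 29 counts. The Lin+ mean was 17.2 times that of S0-Low and 13.2 times that of S0-Medium, with log2 fold changes of 4.10 ± 1.17 (SE, adjusted p = 0.136) and 3.72 ± 1.15 (adjusted p = 0.0836) in edgeR's quasi-likelihood test, adjusted by Benjamini-Hochberg over all genes. Against S1 the Lin+ mean was 227 times higher (adjusted p = 0.00106) and against S3 also 227 times higher (adjusted p = 0.000324). S2 had 3 counts in all, which gave a pooled ratio of 3130 with a counting interval (95%) of 1070 to 15200 (adjusted p = 0.00012).

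Ppbp, pro-platelet basic protein and the neighbour of Pf4, was lower in Lin+, at 342, 151 and 329 normalized counts. Its only other reads were 11 counts in S0-Low replicate 2, 1 count in S0-Medium replicate 1 and 7 counts in S0-Medium replicate 2. All 9 libraries of S1, S2 and S3 were at 0, as were 12 of the 15 lineage-negative libraries. Against the floor of 3 counts per library, Ppbp was at least 101-fold higher in Lin+ than in S1, at least 74.7-fold higher than in S2 and at least 48.1-fold higher than in S3 (adjusted p = 0.0113, 0.0085 and 0.00622). The Lin+ mean was 93.8 times that of S0-Low (adjusted p = 0.221) and 138 times that of S0-Medium (adjusted p = 0.0847). Ppbp passed the filter through Lin+ alone, so its p-values are no support. The flanking chemokine genes gave 128, 38.2 and 127 normalized counts for Cxcl5 and 106, 22.8 and 67.7 for Cxcl3 in Lin+. Neither exceeded 2.96 in any lineage-negative library.

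The integrin genes had the most counts of the members and stayed abundant in the earliest lineage-negative cells. Itga2b, the alphaIIb chain, held 14760, 6243 and 5853 normalized counts in Lin+. It held 3945, 3988 and 709 in S0-Low and 4298, 2217 and 2060 in S0-Medium. In S1 it held 412, 584 and 462, in S2 349, 388 and 181, and in S3 586, 2487 and 1153. No library lacked Itga2b, S0-Low and S0-Medium overlapped, and the lowest S3 library (586) was just above the highest S1 library (584), a difference that was not tested. As the check of the sort, Lin+ was higher than S1 (18.4-fold, adjusted p = 0.000444), S2 (29.3-fold, adjusted p = 9.28e-05) and S3 (6.36-fold, adjusted p = 0.00268). The ratios of 3.11 to S0-Low (adjusted p = 0.301) and 3.13 to S0-Medium (adjusted p = 0.154) did not pass. S0-Low cells, gated as negative for CD41 among the other lineage antigens, thus held new Itga2b RNA at 4773, 4999 and 267 raw counts. Of the other panel genes, Ptprc, which encodes CD45 with its CD45R isoform, had 2909 to 5416 normalized counts in S0-Low and 7165 to 14286 in Lin+. Ly6c2 and Ly6g had at most 2.39 and 3.31 in S0-Low, against 306 to 521 and 3.68 to 45.2 in Lin+. Cd3e and Ly6c1 were at 0 in S0-Low and reached at most 2.65 and 0.663 in Lin+. Itgam, which encodes CD11b, was listed at 0 in all 18 libraries. Whether a zero throughout comes from the counting was not tested, and it is not read as absence.

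Itgb3, the beta3 chain, held 24828, 10327 and 11493 normalized counts in Lin+. It held 5536, 4633 and 4614 in S0-Low, and 5318, 2134 and 711 in S0-Medium. In S1 it held 102, 194 and 153, in S2 0, 42.6 and 203, and in S3 993, 363 and 0. Itgb3 was thus even across the S0-Low libraries, lower in all 9 libraries of S1 to S3 than in any S0-Low library, and at 0 in 1 library each of S2 and S3. Lin+ was higher than S1 by 104-fold (adjusted p = 0.00565), S2 by 190-fold (adjusted p = 0.00199) and S3 by 34.4-fold (adjusted p = 0.00766). The ratio to S0-Low was 3.16 (log2 1.66 ± 1.20, adjusted p = 0.824) and to S0-Medium 5.71 (log2 2.51 ± 1.24, adjusted p = 0.335). Itgav, the alternative alpha partner of the beta3 chain, held 1641 to 2573 normalized counts in Lin+ and 937 to 1302 in S0-Low. The calls of Pf4 and Itgb3 against S1, S2 and S3 held in all 15 settings tried.

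The genes of the GPIb-IX complex did not share a pattern. Gp1ba, the chain that binds von Willebrand factor, held 1426, 404 and 612 normalized counts in Lin+. It held 212, 334 and 79.7 in S0-Low, 241, 250 and 89.2 in S0-Medium and 159, 105 and 59.8 in S1. In S2 it held 92.1, 54.5 and 5.87, and in S3 0, 24.5 and 171. Each lineage-negative population overlapped the next in the order of means, and no difference among those tested between them passed (adjusted p of 0.274 to 1.0). Gp1ba was called lower in S3 than in S0-Low without S3 replicate 3, where the log2 fold change went from -1.68 to -4.03 (adjusted p = 0.0369). Lin+ was higher than S2 by 16.0-fold (adjusted p = 0.0337) and S3 by log2 3.64 ± 1.29 (adjusted p = 0.0312). The ratios of 3.90 to S0-Low, 4.21 to S0-Medium and 7.54 to S1 had adjusted p-values of 0.714, 0.441 and 0.128, and the last was called by DESeq2 (0.0228) and with only the 6 libraries compared (0.00593). The call against S2 was lost, with adjusted p-values of 0.0528 to 0.112, without Lin+ replicate 1 or 3 or any S2 replicate, and the call against S3 without Lin+ replicate 1 (0.106) or S3 replicate 2 (0.0872) or with only the 6 libraries compared (0.0864).

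Gp1bb, the beta chain of the same receptor, was the weakest member, with 29, 19 and 42 raw counts in Lin+ (31.2, 14.0 and 27.9 normalized). It had 2 counts in S0-Low replicate 2, 9 counts in S0-Medium replicate 1, and 0 in the other 13 lineage-negative libraries. Against the floor it was at least 8.97-fold higher in Lin+ than in S1, 6.63-fold higher than in S2 and 4.27-fold higher than in S3 (adjusted p = 0.045, 0.0384 and 0.0328). The pooled ratio to S0-Low was 33.7 with an interval of 9.05 to 282, and the log2 fold change against S0-Medium was 3.36 ± 1.84 (adjusted p = 0.422 for both). Since Gp1bb passed the filter through Lin+ alone, these p-values are no support. The calls from S1 on did not survive leaving out any 1 Lin+ library or any 1 library of the population compared, with adjusted p-values from 0.0519 to 0.149, and were not made by DESeq2 (0.165 to 0.177). The overlapping gene Septin5, listed under its older symbol Sept5, held 15.1, 30.9 and 54.4 normalized counts in Lin+ and at most 7.44 in the other libraries, so reads of the pair cannot be told apart with certainty.

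Gp9, the third chain of the complex, was the exception among the members. Its level in Lin+ was 269, 229 and 306 normalized counts, and in S0-Low nearly the same at 212, 207 and 252. It held 62.2, 59.7 and 344 in S0-Medium and 62.6, 52.6 and 717 in S1. In S2 it held 85.3, 158 and 550, and in S3 0, 284 and 75.4. The highest library of all was S1 replicate 3, and in S0-Medium, S1 and S2 replicate 3 stood well above the other two. The log2 fold changes of Lin+ were 0.26 ± 1.28 against S0-Low, 0.79 ± 1.28 against S0-Medium, -0.05 ± 1.27 against S1, 0.02 ± 1.28 against S2 and 1.16 ± 1.29 against S3, with adjusted p-values of 0.495 to 0.998. With standard errors of that size, a difference of several fold in either direction would not have been detectable. Gp9 was called in no comparison under any setting. The summed erythroid markers were likewise highest in replicate 3 of S0-Medium (2336 CPM, against 703 and 1057), S1 (5400 against 1873 and 2065) and S2 (11551 against 3837 and 4715). In S3 the sum was also highest in replicate 3 (40438 against 21419 and 30732), where Gp9 was highest in replicate 2. The part of these differences in the values of Gp9 was not tested.

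Gp6, the collagen receptor, was nearly absent outside Lin+. It held 391, 29.4 and 134 normalized counts in Lin+, so that replicate 2 carried 40 raw counts where replicate 1 carried 363. Of the lineage-negative libraries, 10 were at 0, including all of S0-Low and S2, and the highest was S3 replicate 2 with 6 counts. Gp6 was at least 50.3-fold higher in Lin+ than in S2 (adjusted p = 0.00764) and at least 43.2-fold higher than in S0-Low, where the adjusted p was 0.0777. The ratio to S0-Medium, with 8 counts in all, was 93.3 (adjusted p = 0.0923). The pooled ratio to S1, which had 3 counts, was 179 with an interval of 60.9 to 869 (adjusted p = 0.0253), and the ratio to S3 was 64.1 (adjusted p = 0.0262). As Gp6 passed the filter through Lin+ alone, its p-values are no support. The call against S1 was lost without Lin+ replicate 1 (0.0795) or 3 (0.0549) or any S1 replicate (0.0818 to 0.11), and that against S3 without Lin+ replicate 1 (0.0876) or S3 replicate 1 (0.0682) or 3 (0.0768). Fcer1g, the signalling chain that Gp6 pairs with and that other Fc receptors share, held 1640 to 2133 normalized counts in Lin+, 284 to 688 in S0-Low and 0 to 7.21 in S3.

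Vwf and Itga2b were the only members with reads in all 18 libraries. It held 10856, 3290 and 5269 normalized counts in Lin+. It held 652, 671 and 1538 in S0-Low, 1285, 513 and 2952 in S0-Medium and 722, 532 and 2887 in S1. In S2 it held 605, 876 and 2787, and in S3 1189, 913 and 1033. The 5 lineage-negative populations overlapped throughout, with replicate 3 highest in 4 of them, and the lowest Lin+ library (3290) was only slightly above the highest lineage-negative one (2952). Lin+ was 4.69-fold higher than S1 (adjusted p = 0.0497), 4.55-fold higher than S2 (adjusted p = 0.0392) and 6.19-fold higher than S3 (adjusted p = 0.0103). The ratio to S0-Low was 6.79 (log2 2.77 ± 0.76, adjusted p = 0.117, or log2 2.91 and 0.0108 with the replicate block) and to S0-Medium 4.09 (adjusted p = 0.15). The call against S3 was lost without Lin+ replicate 1 (0.0513), and that against S1 also with a filter of 10 counts in 3 libraries (0.0501). The calls against S1 and S2 were lost without Lin+ replicate 1 (0.206 and 0.172), Lin+ replicate 3 (0.0792 and 0.059) or replicate 1 (0.177 and 0.13) or 2 (0.184 and 0.125) of the population compared. Since endothelial cells also make Vwf, 9 endothelial markers were summed. They came to 66.9 to 143 CPM in Lin+, 56.8 to 153 CPM in S0-Low, 16.4 to 42.6 CPM in S0-Medium, 10.2 to 19.7 CPM in S1, 3.94 to 8.20 CPM in S2 and 0.984 to 7.12 CPM in S3. None of the 9 was at 0 in all Lin+ libraries, none was called between Lin+ and S0-Low by edgeR or DESeq2 (1 at an unadjusted p under 0.05), and 3, 7 and 8 of 9 were called higher in Lin+ than in S1, S2 and S3, beside 10.9%, 16.3% and 28.2% of all genes. Of the 9, 3 (Cdh5, Tie1 and Robo4) were at 0 in all libraries of S2 and of S3, and the others had reads in both. Their part in the Vwf values was not tested.

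Counted over the members, Lin+ was called higher than S1 for 7 of 9 genes, than S2 for 8 and than S3 for 8. The matching shares of all genes tested were 10.9%, 16.3% and 28.2%. These counts hold Itga2b, which the sort fixed, and Ppbp, Gp1bb and Gp6, which the filter admitted through Lin+. Of the other 5 members (Pf4, Itgb3, Gp1ba, Gp9 and Vwf), 3 were called against S1, 4 against S2 and 4 against S3. The CD41 gate bears on these 5 too, so their counts are not independent of the sort. Among genes that pass on the lineage-negative libraries alone, 9.53%, 14.5% and 26.5% were called. Of other lists under that filter, all 4 neutrophil markers were called higher in each comparison. So were 6, 7 and 8 of 8 stem and progenitor markers, so the pattern was not particular to the members. For T cell markers it was 0 of 3 in each and for hepatocyte markers 0, 0 and 2 of 4. All 8 erythroid markers were lower in each. No member was called against S0-Low or S0-Medium, where 0.496% and 2.64% of all genes were called higher (0.23% and 2.14% of those passing on the lineage-negative libraries alone). At an unadjusted p under 0.05, 6 members passed against S0-Low and 5 against S0-Medium, beside 6.89% and 10.4% of all genes. DESeq2 called 3 (Pf4, Gp6 and Vwf) and 4 (Pf4, Ppbp, Itga2b and Gp6), beside 2.88% and 6.94%. Outside Itga2b and the 3 members admitted through Lin+, those passing at an unadjusted p were Pf4 and Vwf in both comparisons. With the replicate number as a block, Vwf (adjusted p = 0.0108) was called higher in Lin+ than in S0-Low, as was Gp6 (adjusted p = 0.0491), which the filter admitted through Lin+. The median log2 fold change of the 9 members was 2.77 against S0-Low and 2.51 against S0-Medium. It was 6.70 against S1, 7.58 against S2 and 5.11 against S3, or 4.20, 4.87 and 3.64 with members at 0 placed at their lower bound. Over the 5 members alone it was 1.96, 2.07, 2.91, 4.00 and 3.64. The median over all genes was 0.02, 0.02, 0.01, 0.08 and 0.69 in the same 5 comparisons. The 5 comparisons share the Lin+ libraries.

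**Figure D2:**
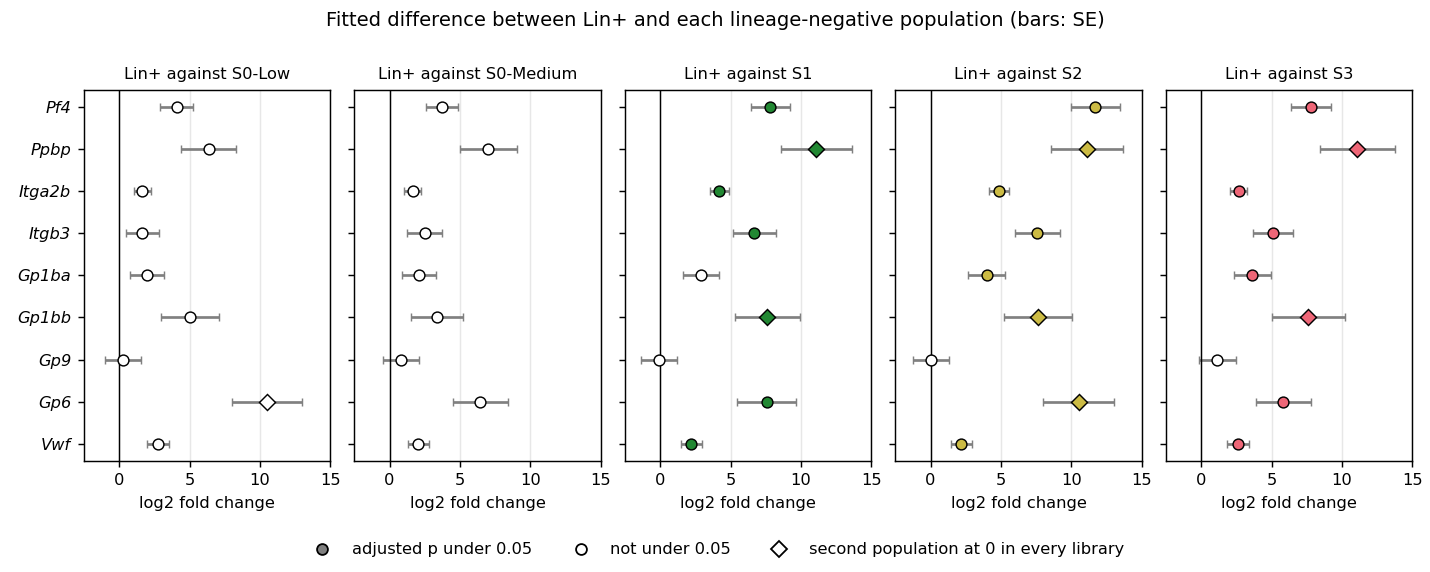
Fitted log2 fold change of Lin+ against each lineage-negative population (horizontal) for the 9 genes (vertical), with bars of 1 SE; filled symbols passed an adjusted p of 0.05, and diamonds mark populations at 0 in every library, where the fitted value depends on the prior count and is no bound. No symbol is filled against S0-Low or S0-Medium, 7 are filled against S1 and 8 against S2 and S3, and Gp9 lies closest to 0 in each panel.

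Within the lineage-negative cells, S1 was lower than S0-Low in 2 members, Itga2b (5.93-fold, adjusted p = 0.0213) and Itgb3 (32.9-fold, adjusted p = 0.0419), where 3.98% of all genes were called lower. Pf4 was 13.2-fold lower in S1 (adjusted p = 0.0749) and was called under the replicate block (adjusted p = 0.0275). Neither integrin call survived leaving out any 1 library of the pair of populations (adjusted p of 0.0657 to 0.159), except that Itga2b held without S0-Low replicate 3. S3 was lower than S0-Low in 2 members, Pf4 (13.2-fold, adjusted p = 0.0218) and Itgb3 (10.9-fold, adjusted p = 0.044), which is close to the 24.4% of all genes called lower in S3. The Itgb3 call was lost without any S0-Low replicate or S3 replicate 2 or 3 (0.0602 to 0.103), and the Pf4 call without S0-Low replicate 2 (0.0562) or S3 replicate 1 (0.0547) or 2 (0.0526). All S3 reads of Pf4 came from replicate 3, without which S3 was at 0 and the fitted log2 fold change went from -3.71 to -10.92 (adjusted p = 0.000349), a value that depends on the prior count. The median log2 fold change was -2.57 in S1 and -1.68 in S3, beside 0.00 and -0.62 for all genes. It was -0.95 over 7 members and -1.35 over 6 when those at 0 were bounded or, where no fold could be given, left out. Stem and progenitor markers were also called lower than in S0-Low, 7 of 8 in S1 and 8 of 8 in S3. Neutrophil markers were lower for 4 of 8 in each. Of 5 T cell markers 0 were called in either, and erythroid markers were higher for 5 and 8 of 8. Between S0-Medium and S0-Low no member was called, in a comparison in which 0.0% of all genes were called by edgeR. No member passed an unadjusted p under 0.05 there, while 887 genes did, and DESeq2 called 92 genes. The fitted log2 fold changes between these S0 populations lay between -0.86 (Itgb3, SE 1.18) and 1.65 (Gp1bb, SE 1.86), leaving out Gp6, which was at 0 in all S0-Low libraries.

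A further 35 megakaryocyte and platelet genes were examined, and all 35 were tested. Their counts were not compared with those of the members by a test. Against S0-Low edgeR called none higher in Lin+, although 11 passed an unadjusted p under 0.05 and DESeq2 called 5. The matching shares of all genes were 0.496%, 6.89% and 2.88%. Against S0-Medium edgeR called 6, with 25 at an unadjusted p under 0.05 and 19 by DESeq2, beside 2.64%, 10.4% and 6.94% of all genes. Against S1, S2 and S3 the numbers were 31, 31 and 30 of 35, beside 10.9%, 16.3% and 28.2% of all genes. Of the 33 that pass the filter on the lineage-negative libraries alone, 30, 30 and 29 were called, beside 9.53%, 14.5% and 26.5% of all genes that pass so. The median log2 fold changes were 1.17, 2.50, 6.22, 8.41 and 9.98, or 6.21, 7.91 and 6.71 in the last 3 with genes at 0 placed at their bound. S1 was lower than S0-Low in 19 of the 35 (3.98% of all genes), and S3 in 28 (24.4% of all genes) with 1 higher (Tubb1, the platelet beta tubulin). The genes with the most Lin+ counts were Thbs1 (thrombospondin 1), Plek (pleckstrin), Fermt3 (kindlin 3), Stxbp5 (tomosyn), F13a1 (the clotting factor XIII A chain) and Rab27b (a granule GTPase). Thbs1 had 31195 ± 4276 normalized counts (SD, n = 3) in Lin+ and 222 ± 128 in S1 (adjusted p = 0.000182), but did not pass against its 2742 ± 1156 in S0-Low (adjusted p = 0.0701). Plek had 15628 ± 4924 in Lin+ and 182 ± 61.4 in S1, and F13a1 had 9046 ± 1931 and 12.6 ± 11.1. Rab27b had 7822 ± 3202 in Lin+, 2502 ± 1529 in S0-Low and 227 ± 54.1 in S1. Fermt3, which is used by other blood cells as well, had 13717 ± 4205 in Lin+ and still 5911 ± 244 in S1, and Stxbp5 had 9224 ± 835 and 4083 ± 1511. Both were called higher in Lin+ than in S1, by log2 1.21 ± 0.33 and 1.18 ± 0.31. Gp5, the fourth chain of the GPIb-IX receptor, held 1833, 540 and 806 normalized counts in Lin+, 536, 991 and 55.8 in S0-Low and 0 in all 3 S3 libraries.

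**Figure D3:**
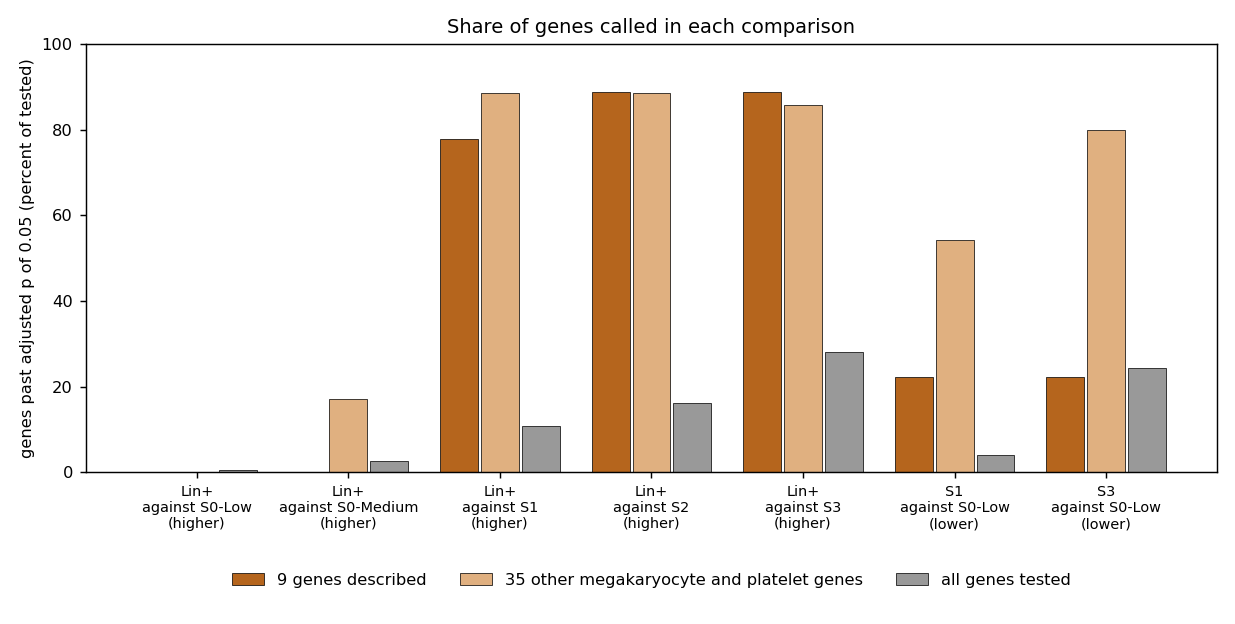
Percent of tested genes past an adjusted p of 0.05 (vertical) in each comparison (horizontal) for the 9 genes described, 35 other megakaryocyte and platelet genes and all genes tested. Bars count genes higher in Lin+ in the first 5 comparisons and genes lower in S1 or S3 in the last 2. The 9 genes stand at 0 against S0-Low and S0-Medium, at 7 of 9 against S1 and at 8 of 9 against S2 and S3, and at 2 of 9 in the comparisons among lineage-negative cells.

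The transcription factors that act in megakaryocytes had calls in both directions. Of 16 listed, 14 were tested, while Zfpm1 and Ikzf5 were listed at 0 in all 18 libraries, which, as for Itgam, is not read as absence. None was called between Lin+ and S0-Low by edgeR or DESeq2. At an unadjusted p under 0.05 edgeR had 1 higher and 1 lower, where 6.89% of all genes were higher. Against S1, 9 were called higher in Lin+ and 3 lower, where 10.9% of all genes were higher and 4.66% lower. Against S3, 10 were higher and 4 lower, where the shares were 28.2% and 14.1%. Those lower in Lin+ than in S3 were Gata1, Tal1, Gfi1b and Nfe2, all of which red cell precursors also use. Runx1 had the most Lin+ counts, at 49027 ± 3551 normalized counts, against 39511 ± 13952 in S0-Low and 14045 ± 4672 in S1. Etv6 had 25394 ± 4184 and Fli1 16577 ± 516 in Lin+. Fli1, an ETS factor of the megakaryocyte lineage, had 8608 ± 2180 in S0-Low, 381 ± 202 in S1 and 6.73 ± 11.7 in S3. It was called higher in Lin+ than in S1 (log2 5.44, adjusted p = 0.00189) but not than in S0-Low (log2 0.95, adjusted p = 0.906).

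Of 11 genes for partners and ligands of the member receptors, 8 were tested. Against S0-Low neither edgeR nor DESeq2 called any, and 1 passed an unadjusted p under 0.05 in edgeR, beside 6.89% of all genes. Against S0-Medium, S1, S2 and S3 the numbers higher in Lin+ were 3, 6, 7 and 7, with none lower, beside 2.64%, 10.9%, 16.3% and 28.2% of all genes. Tln1, talin 1, which activates integrins from inside the cell, had the most Lin+ counts at 43819 ± 18051 normalized counts, against 27199 ± 12562 in S0-Low and 20242 ± 5992 in S3. Plcg2 (17245 ± 3731) and Syk (15714 ± 3001), which signal below Gp6, were at 507 ± 204 and 837 ± 81.2 in S1. The fibrinogen genes Fga, Fgb and Fgg, whose product is the ligand of the integrin and comes from hepatocytes, did not pass the filter and reached at most 6.67 normalized counts in any library.

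Across the 18 libraries, Pearson's r of log2(CPM + 0.5) between members ran up to 0.966, for Ppbp and Gp1bb. Ppbp, Gp1bb and Gp6 formed the closest trio, with r of 0.938 to 0.966, but most lineage-negative libraries were at 0 for all 3, so that these values rest on the Lin+ libraries. Itga2b was most like Pf4 (0.863) and Itgb3 (0.785) among the members. Gp9 was least like the rest, with r of 0.149 to 0.332 except 0.531 with Vwf. All points share their library's depth and cell mixture, and r is given as a description.

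**Figure D4:**
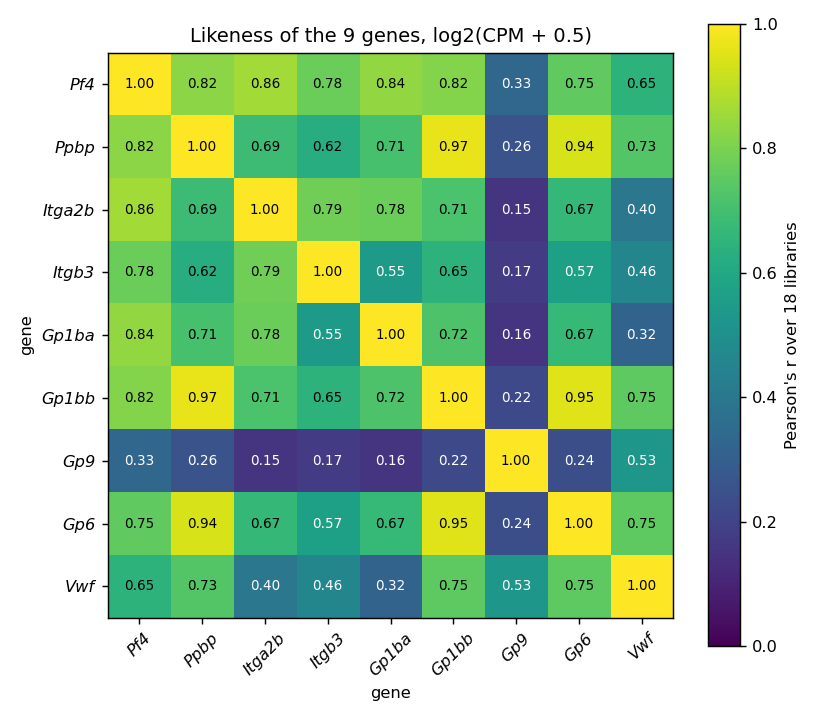
Pearson's r over 18 libraries between the log2(CPM + 0.5) values of each pair of the 9 genes (both axes), with r printed in each cell and shown by colour from 0 to 1. The row of Gp9 is the darkest, and its highest value off the diagonal is that with Vwf.

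Over the tested genes that have a symbol, the gene most like Pf4 was Rrad (r = 0.964), followed by Gnaz (0.958), a G protein subunit of platelets, and Slc9a5 (0.956). Itga2b was most like Trpc6 (0.929), a cation channel that is also on the list of platelet genes, Robo3 (0.922) and Arhgap31 (0.91). Itgb3 was most like Ano6 (0.947), the scramblase that exposes phosphatidylserine on activated platelets, and Prkch (0.935) was also among its nearest 3. For Gp1ba the nearest genes were Flna (0.928), whose product filamin A anchors the GPIb chain to actin, Zfyve9 (0.922) and Axl (0.915). Gp9 was closest to Hint2 (0.907), Acrbp (0.905) and Aldh6a1 (0.874), and Vwf to Stard3 (0.896), Naip2 (0.875) and Wdr95 (0.829). Ppbp was closest to Gm7609, Spp1 and Mefv (0.994, 0.993 and 0.993), Gp1bb to Tnfsf11, Wnt10b and Prlr (0.99, 0.987 and 0.986) and Gp6 to Cxcl3, C1qb and Cd2 (0.986, 0.985 and 0.98). C1qb is a macrophage gene and Cd2 a lymphocyte gene. Of the 27 nearest genes, 3 for each member, 16 were also among the nearest 3 with a pseudocount of 0.1 CPM in place of 0.5. These were 0 of 3 for Pf4, 1 of 3 for Ppbp and Gp1bb, 2 of 3 for Itga2b, Itgb3, Gp1ba and Gp6, and all 3 for Gp9 and Vwf.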

How the data were processed

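Nascent RNA was purified by 4sU labelling and biotin capture, and libraries were made with a stranded kit and 14 PCR cycles without molecular identifiers. The deposited values are raw counts for each gene and library, in whole numbers. The submitters' processing notes name kallisto 0.43.0 and GRCm38. Kallisto assigns reads to transcripts by shared stretches of bases, so overlapping genes can share counts. The transcript set, the treatment of introns and the strand setting are not given in the sources used here. Populations and replicate numbers came from the labels.

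All 18 libraries entered 1 edgeR 4.0.16 fit (R 4.3.3) with population as the only factor, TMM scaling and filterByExpr. The biological coefficient of variation was 0.771. The filter was also applied to the 15 lineage-negative libraries alone, a step added after seeing the data. Populations were compared by the quasi-likelihood test, with p-values adjusted by Benjamini-Hochberg over 17755 genes and called under 0.05. SEs were taken from the log2 fold change and its F statistic. Where a population was at 0, folds were bounded with 3 counts in each library. With 1 to 3 counts, a pooled ratio with an exact (Clopper-Pearson) 95% counting interval was given. The fit was tested on simulated counts. Replicates of a population differed beyond sampling noise, since chi-square divided by its degrees of freedom was at least 55.2 in each pair. Further steps used Python 3.11.15 (matplotlib 3.10.9 for plots, scipy 1.17.1 for intervals, pandas 2.3.3). Exon lengths and shared 31-base stretches came from a GENCODE annotation of an older build, without its coordinates. All 150 genes of the lists were matched by symbol.

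Deviations of same-numbered libraries from their population means correlated above 0.1 in every pair of 5 comparisons (r of 0.192 to 0.388), namely Lin+ against S0-Low, S1 and S2, and S1 and S0-Medium against S0-Low. There the numbers were taken to pair the libraries, a pairing that comes from the labels' replicate numbers. The main p-values and calls come from the fit without the block and so leave that pairing out. The gene lists were not counted under the block. In Lin+ against S0-Medium (0.07), Lin+ against S3 (0.091) and S3 against S0-Low (0.081), 1 pair was lower. That does not show these libraries to be unpaired.

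The 9 members, the gene lists and the promoter motifs were chosen with earlier results of these data known. Genes were named by rule: the members, the 6 genes (megakaryocyte list) or 4 genes (other lists) with the highest Lin+ means, the 3 genes most like each member, its neighbours, and the panel antigens. Tubb1, Gp5, Fcer1g, Itgav, the fibrinogen genes and the factors lower in Lin+ were named from the lists after their values were seen. The alternatives tried were RLE factors, library totals, no filter, a filter of 10 counts in 3 libraries, the replicate block, only the 6 libraries compared, DESeq2 1.42.0 and leaving out each library. Some genes that the naming rule covers are not reported here.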

Additional observations from a re-analysis of the deposited data

How the results depend on the processing

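No member was called higher in Lin+ than in S0-Low, but 3 were with DESeq2, 3 without a filter, 4 with only the 6 libraries compared, 2 with the replicate block and 2 with replicate 3 of all populations left out, a setting chosen after seeing the data. Against S0-Medium the counts were 4, 5, 5, 3 and 2 in place of 0. Without 1 library, the 7 members called against S1 became 4 to 6, the 8 against S2 5 to 7 and the 8 against S3 4 to 7. The 2 called lower in S3 than in S0-Low became 0 to 2, and 0 with only the 6 libraries compared. The 2 called lower in S1 became 0 to 1. With replicate 3 of all populations left out, Gp1ba was also called lower in S3 than in S0-Low (log2 -4.38, adjusted p = 0.0122). No called member changed direction in any setting. In the comparisons where 1 pair of same-numbered libraries correlated below 0.1, the block added Pf4, Ppbp and Vwf to the calls against S0-Medium. It removed Gp1ba from those against S3 (adjusted p = 0.0617). It changed no other call of a member beyond those given above. Counts over all genes moved by more than 1.5 times. For Lin+ against S0-Low, 88 genes were called higher and 39 lower, against 227 and 115 with the block, 520 and 145 with DESeq2, 311 and 82 without a filter, and 520 and 53 with 6 libraries. Leaving out 1 library lowered them to as few as 29 and 13. For Lin+ against S0-Medium, 469 and 229 became 827 and 557, 1255 and 416, 813 and 294, and 1585 and 447 in those 4 settings. They became 104 and 136 without S0-Medium replicate 2, and 168 and 106 without Lin+ replicate 3. For S0-Medium against S0-Low the 0 calls became 22 and 27 without a filter and 30 and 62 with DESeq2. For S1 against S0-Low, 256 higher and 707 lower became 441 and 1701 with DESeq2, 168 and 291 without S1 replicate 2, and 86 and 426 without S0-Low replicate 1. With only the 6 libraries, Lin+ against S1 went from 1936 and 827 to 3399 and 1605, and S3 against S0-Low to 1404 and 2430. Lin+ against S1 went to 953 and 519 without S1 replicate 2, and to 1236 and 434 without Lin+ replicate 3. Lin+ against S2 went from 2896 and 1480 to 1998 and 897 without S2 replicate 3, and to 1984 and 1202 without S2 replicate 1. Library totals in place of TMM moved the median over all genes from 0.69 to 1.47 in Lin+ against S3 and from -0.62 to -1.44 in S3 against S0-Low, and the calls from 5005 higher and 2496 lower to 7124 and 1338, and from 2387 and 4328 to 1226 and 6962. With RLE factors, Lin+ against S2 had 3294 and 938, with a median of 0.40 in place of 0.08, and against S1 the median went from 0.01 to 0.24. The calls of the members in Lin+ against S3 were the same with library totals and with RLE factors. Library totals, but not RLE factors, added Itga2b to those lower in S3 than in S0-Low (adjusted p = 0.0178 and 0.115). Itga2b was also called lower in S3 without S0-Low replicate 3 (log2 -1.51, adjusted p = 0.0397), where Itgb3 was not. Why these counts moved was not tested. Precision was limited for Gp1bb, Gp6 and Ppbp, whose Lin+ totals were 90, 605 and 1020 counts, and in S0-Low replicate 3, the shallowest library. Whether depth, low expression or, for Gp1bb, shared sequence set these counts was not tested.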
